A study of Anopheles gambiae with 60 samples.

Results

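A probe set is a group of short array sequences that together report 1 transcript. Of the 16884 *Anopheles* probe sets on the array, 133 had a sex difference that ran in opposite directions in different somatic tissues of adult mosquitoes. These were chosen from the measured values by a rule: the female mean exceeded the male mean by at least 1.5 on the log2 scale (2.83-fold) in 1 of 5 somatic tissues, the male mean exceeded the female mean by at least 1.5 in another, and the higher sex reached a log2 intensity of at least 6 in both. Because the rule used the sex differences of head, carcass, salivary gland, midgut and Malpighian tubules, those differences are described below with no test. The whole body, ovary, testis and accessory gland were not used by the rule.

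RNA of adult *Anopheles gambiae* was hybridized to 60 arrays, 4 replicates in each of 15 groups. The groups were head, carcass, salivary gland, midgut, Malpighian tubules and whole body of both sexes, together with ovary, testis and male accessory gland. According to the methods, the females were unmated and had been fed blood, and the males were siblings of matched age, whereas the sample labels name a blood meal for both sexes. An age of 5 days is given in the labels for either sex, and the methods give the females' age at the blood meal, a younger one. Every replicate pooled the dissected organs of several mosquitoes collected at 24, 48 and 72 h, so neither the spread between individuals nor the time course can be seen, and 50 ng of RNA was used per array. No group carries a transgene or a drug treatment, and feeding and sex cannot be told apart in any of these comparisons. The heads held brain, eyes and cuticle with some fat body, and the carcass was what remained of thorax and abdomen after dissection. Salivary glands were rinsed to remove most adhering fat body.

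These tissues differ in what they do in the 2 sexes. The female midgut digests a blood meal and the male midgut only sugar, the Malpighian tubules excrete salt, water and waste, and the female salivary gland produces the anticlotting and vasodilating proteins that blood feeding needs. The carcass holds most of the fat body, the organ that produces yolk proteins in a fed female and many immune and carrier proteins in both sexes.

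Replicate arrays of a group correlated at 0.939 to 0.995 (Pearson, over all probe sets). The authors normalized each tissue separately, both sexes together, so a sex difference within a tissue is on 1 scale while levels in different tissues are set side by side as a description. With 4 arrays a group, that number limits how precise each mean is. The identity of the tissues could be looked at with only 2 defining genes, because the intensity table gives no gene names. AGAP001826, the fat body's lipophorin, lay between 12.10 and 13.58 on the 8 carcass arrays, and AGAP010147, which encodes the myosin heavy chain of muscle, read 5.45, 5.00, 6.17 and 7.30 in the female carcass and 8.28, 6.78, 9.002 and 8.94 in the male. In bulk tissue, fewer cells of a type and less RNA per cell cannot be told apart.

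The reversals were not spread evenly over the tissues. The salivary gland stood on the male side for 76 of the 133 probe sets and on the female side for 19, the most one-sided of the 5 tissues after the head. The head leaned the other way, with 32 higher in females and 4 higher in males. In the carcass 46 were higher in females and 23 in males, in the midgut 40 and 40, and in the Malpighian tubules 9 and 31. Among all probe sets at log2 6 or above in the higher sex, the same difference of 1.5 was passed towards females by 4.73% in the head, 10.8% in the carcass, 10.7% in the salivary gland, 10.3% in the midgut and 4.28% in the Malpighian tubules. Towards males it was passed by 1.97%, 8.72%, 11.5%, 12% and 6.92% in the same order. Since the rule used these contrasts, nothing is read from the members' counts against these shares.

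Counted by ordered pairs, the reversals most often joined a female-higher carcass to a male-higher salivary gland (32 probe sets). A female-higher head with a male-higher salivary gland followed with 25, a female-higher carcass with a male-higher midgut with 24, and a female-higher midgut with a male-higher salivary gland with 22. The opposite orders were less frequent: 5 probe sets were higher in the female salivary gland and the male carcass, and 12 in the female midgut and the male carcass. No probe set was higher in the female salivary gland and the male head. Whichever way round, carcass and salivary gland reversed for 37, carcass and midgut for 36, salivary gland and midgut for 32, head and salivary gland for 25, and head and Malpighian tubules for 4. A probe set can count in several pairs: 90 passed in 2 tissues, 32 in 3 tissues and 11 in 4 tissues.

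**Figure D1:**
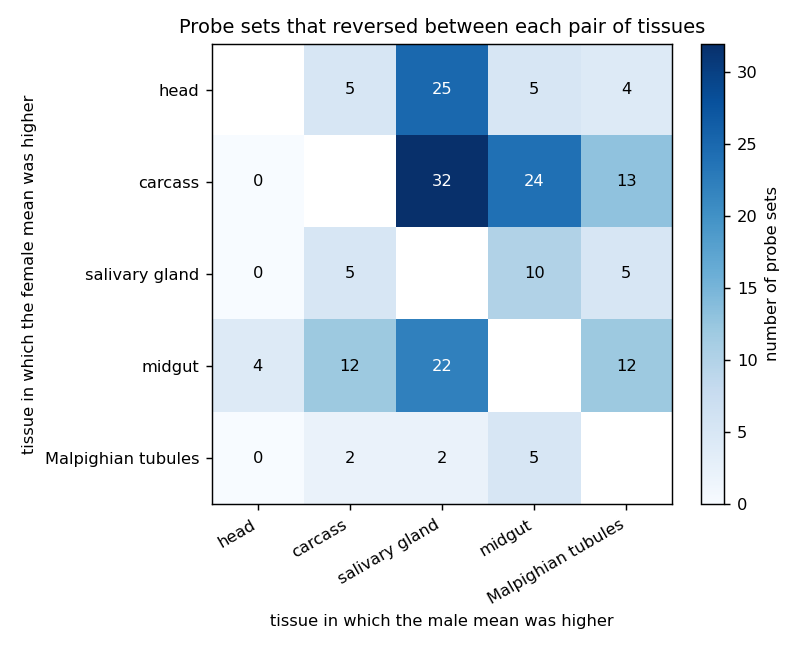
Number of the 133 probe sets that passed the rule for each ordered pair of tissues, with the female-higher tissue on the vertical axis and the male-higher tissue on the horizontal axis; a probe set can appear in more than 1 cell. The fullest cell is the female-higher carcass with the male-higher salivary gland (32), and the salivary gland column holds 3 of the 4 fullest cells.

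The smaller of a probe set's 2 opposed differences was 1.99 at the median and ran up to 4.62. It was at least 2 for 66 probe sets and at least 3 for 10. All 4 female arrays lay above all 4 male arrays in the most female-higher tissue of 118 probe sets, and all 4 male arrays above all 4 female arrays in the most male-higher tissue of 117. Among all probe sets at log2 6 or above, 14.7% (head) to 25.2% (salivary gland) had all female arrays on top, and 12.5% (head) to 30.7% (carcass) all male arrays. The rule required a difference of at least 1.5 in the members' tissues, whereas these shares cover differences of any size. The members' counts are therefore not read against them. Both separations held for 108 of the 133, and the arrays overlapped in both tissues for 6. Just inside the rule, Ag.3R.1216.0_UTR_a_at, Ag.X.8.1_a_at and Ag.2L.1084.0_UTR_at had a smaller difference of 1.503, 1.506 and 1.512. Just outside it, Ag.3L.635.0_CDS_a_at, Ag.2L.213.1_CDS_a_at and Ag.3R.9.0_CDS_at were at 1.495, 1.490 and 1.489.

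By its smaller difference, the largest reversal belonged to Ag.3L.1394.0_CDS_a_at, which was high in the salivary gland of females and in the midgut of males. Its log2 intensity in the salivary gland was 10.20, 10.37, 10.10 and 10.37 on the female arrays and 4.70, 4.21, 3.73 and 2.90 on the male arrays, a difference of 6.38. In the midgut the female arrays read 4.04, 4.19, 5.11 and 5.39 and the male arrays 9.71, 9.77, 9.21 and 8.54, a difference of -4.62. The sexes thus traded places between the tissues with no overlap in either. No other dissected group exceeded its female salivary gland, and its carcass stayed between 3.12 and 5.65 on all 8 arrays.

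Ag.3L.710.0_UTR_at, matched to the gene AGAP010794, changed sides between midgut and salivary gland. In the midgut the females read 11.51, 11.40, 11.77 and 10.76 and the males 6.33, 6.26, 5.88 and 4.59. In the salivary gland the females read 5.56, 4.83, 5.89 and 5.17 and the males 8.63, 10.004, 9.31 and 9.67. The differences were 5.59 and -4.04, and the arrays of the 2 sexes were fully apart in both tissues. Its brightest tissue was neither of these but the Malpighian tubules, at 13.02 in females and 12.92 in males.

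Ag.3L.352.0_CDS_at was higher in females in 2 tissues and higher in males in another. The female carcass read 7.73, 8.91, 7.26 and 8.53 against 4.13, 3.75, 4.36 and 3.42 in males, and the female salivary gland 7.43, 8.81, 7.13 and 6.49 against 2.74, 2.66, 2.51 and 2.49. In the midgut the order turned, with 3.08, 3.07, 3.22 and 3.20 in females and 6.99, 6.73, 6.95 and 7.22 in males. The male salivary gland and the female midgut were both close to the lowest intensities of the table, which lay at 2.35 to 2.40, so the size of these differences is set in part by the floor.

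Ag.3L.637.0_CDS_at was higher in the female midgut and the male salivary gland. Its female midgut arrays read 12.29, 12.34, 12.35 and 12.35 and its male midgut arrays 6.95, 7.59, 8.11 and 8.21. In the salivary gland the females read 5.90, 5.29, 6.65 and 7.37 and the males 8.57, 9.57, 9.74 and 10.25. The differences were 4.62 and -3.23, without overlap.

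**Figure D2:**
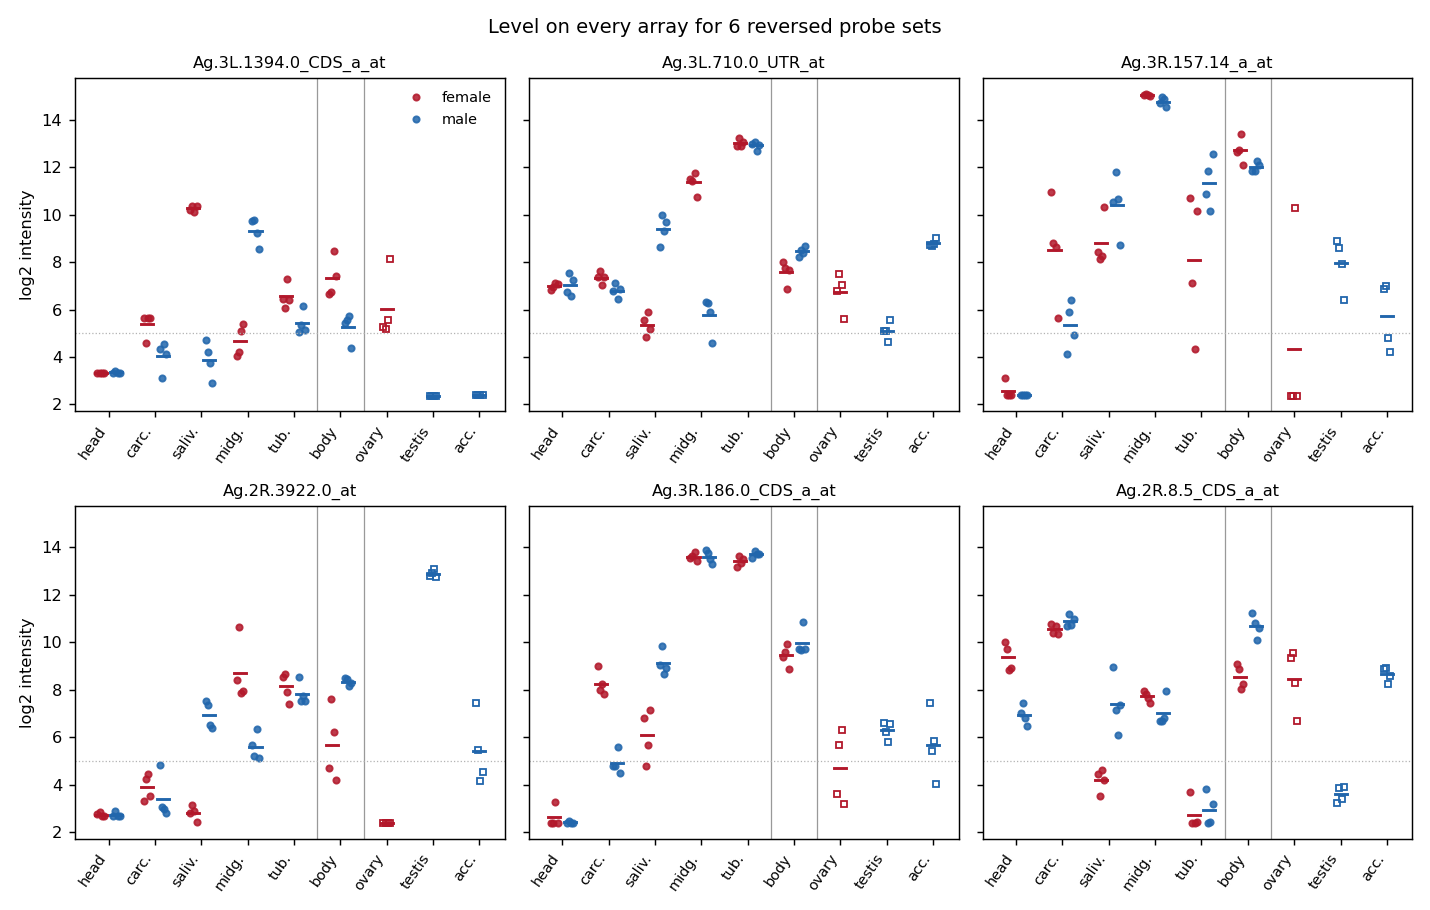
Log2 intensity on each array (points) and group means (bars) of 6 probe sets in the 5 somatic tissues, the whole body and the reproductive organs, females in red and males in blue; the dotted line marks log2 5, the detection limit. Ag.3L.1394.0_CDS_a_at shows the reversal between salivary gland (difference 6.38) and midgut (-4.62), and Ag.3L.710.0_UTR_at and Ag.3R.186.0_CDS_a_at are brightest in tissues where the sexes differ little.

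The salivary gland and the Malpighian tubules were the opposed tissues of 5 probe sets that were higher in the female gland. Ag.3L.1605.0_CDS_a_at was the first of them, with 8.68, 8.45, 8.05 and 8.71 in the female gland and 6.60, 5.85, 4.56 and 4.15 in the male gland. In the tubules the females read 5.47, 5.26, 5.35 and 3.95 and the males 8.89, 8.82, 8.29 and 7.71. The differences were 3.19 and -3.42.
Ag.3L.1064.0_CDS_at combined female excesses in gland and midgut with a male excess in the tubules. In the gland the females read 10.43, 10.58, 10.37 and 10.002 and the males 3.24, 4.47, 2.40 and 3.21, a difference of 7.01. Its midgut difference was 4.05 and its tubule difference -3.08. The tubule arrays read 5.84, 7.90, 6.15 and 4.42 in females and 9.45, 10.36, 8.50 and 8.33 in males. Head, carcass and reproductive organs were near the floor in both sexes, and it was not detected in the whole body.

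The 32 probe sets that were higher in the female carcass and the male salivary gland had median differences of 2.54 (1.61 to 7.36) and -2.93 (-4.36 to -1.58). The midgut was the brightest somatic tissue of 21 of them, the Malpighian tubules of 7, the carcass of 3 and the salivary gland of 1. For most of them the highest level, on scales not common to the tissues, lay outside carcass and gland. Many also passed towards males in those other organs. Among those higher in females in the carcass alone, 7 did so in the midgut, 4 in the tubules and 6 in both.

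Ag.2L.304.0_CDS_at was the exception with the gland at the top of its mean level over both sexes, and it had the largest female excess of all 133. The female carcass read 10.17, 9.68, 10.15 and 10.34 and the male carcass 2.72 on each array, a difference of 7.36. The salivary gland read 7.003, 6.23, 5.95 and 6.87 in females and 9.54, 9.62, 9.05 and 9.41 in males, a difference of -2.89. Head, midgut and tubules did not rise above 2.61 on any array.

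Ag.3R.186.0_CDS_a_at, matched to AGAP008647, was one of the midgut-bright probe sets of the same pair of tissues. The carcass read 8.99, 8.001, 8.24 and 7.81 in females and 4.78, 4.81, 5.58 and 4.48 in males. The salivary gland read 6.82, 4.77, 5.65 and 7.13 in females and 9.03, 9.86, 8.68 and 8.94 in males. Midgut and Malpighian tubules stood far above both, between 13.42 and 13.71 in mean level, and the tubule difference was -0.29. Over all 40 midgut-bright members the median difference was larger, at -1.24 in the midgut and -1.17 in the tubules.

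Other probe sets of this kind had wide spreads between replicates. Ag.2L.16.0_CDS_a_at read 10.05, 4.74, 4.83 and 4.97 in the female salivary gland and 8.26, 8.90, 7.92 and 8.67 in the male gland, so 1 female array lay above all the males. Its carcass read 8.11, 8.93, 8.55 and 7.92 in females and 4.87, 4.43, 7.19 and 5.15 in males, and its midgut difference was -3.31 without overlap. Ag.3R.163.0_CDS_s_at reached 15.03 in the female tubules and differed by 3.14 in the carcass and -2.91 in the gland. The suffix s_at marks a probe set whose sequences match more than 1 transcript, so its value can join related genes. Ag.2L.18.0_CDS_a_at, matched to AGAP006414, overlapped in the carcass (female arrays 5.997 to 6.70, male arrays 3.04 to 6.61) but not in the gland (4.71 to 7.15 and 7.45 to 9.31).

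Ag.3R.157.14_a_at had the least repeatable values of the leading probe sets. Its carcass read 10.97, 8.78, 8.63 and 5.66 in females and 4.10, 5.89, 6.41 and 4.93 in males. Its Malpighian tubules read 10.69, 7.12, 4.34 and 10.14 in females and 10.86, 11.83, 10.14 and 12.54 in males. The sexes overlapped in both tissues, while in the midgut the level was 15.05 in females and 14.76 in males.

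The 24 probe sets higher in the female carcass and the male midgut had median differences of 2.41 and -2.76. In 15 of them the midgut itself was the brightest somatic tissue. Ag.2L.1259.0_CDS_at, matched to AGAP006793, read 6.33, 6.31, 6.24 and 6.50 in the female carcass and 2.49, 2.60, 4.16 and 3.48 in the male carcass. In the midgut it read 5.55, 5.69, 7.61 and 8.54 in females and 10.98, 11.02, 11.23 and 11.33 in males. The male midgut was thus its brightest group, and the differences were 3.16 and -4.29.
Ag.2R.363.0_UTR_a_at, matched to AGAP004159, was bright on both sides of its reversal. The carcass read 12.73, 12.54, 12.34 and 12.15 in females and 10.64, 10.13, 10.25 and 10.26 in males. The midgut read 8.44, 8.29, 8.75 and 8.40 in females and 10.27, 10.78, 10.81 and 11.01 in males. Every one of these 16 values was well over the detection limit, and the sexes were fully apart, by 2.12 and -2.25.

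Of the 25 probe sets higher in the female head and the male salivary gland, 20 were brightest in the carcass. Their median differences were 2.18 (1.55 to 3.16) in the head and -2.53 (-5.63 to -1.51) in the gland. The group is less varied than its number says, because 9 of the 25 share the identifier Ag.2R.8, and these are all the probe sets of that identifier on the array. Over the 60 arrays their levels correlated with each other at 0.972 to 0.997 (Pearson, arrays of 15 groups with no independence between probe sets). Whether they report 1 transcript or several was not examined.

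In the leading one, Ag.2R.8.5_CDS_a_at, the head read 10.02, 9.71, 8.84 and 8.91 in females and 7.04, 7.44, 6.82 and 6.49 in males. The salivary gland read 4.44, 3.52, 4.60 and 4.18 in females and 8.95, 7.15, 6.09 and 7.36 in males. The carcass, at 10.55 in females and 10.90 in males, was brighter than either. Over all 9, the difference ran from 2.17 to 2.43 in the head, from -3.20 to -2.11 in the gland and from -0.41 to -0.26 in the carcass.

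Genes of this pair outside that cluster have the same order by the rule, and their levels are given as a description. AGAP008311 (Ag.3R.242.0_UTR_a_at) read 8.28, 8.36, 8.50 and 8.32 in the female head and 5.89, 5.88, 5.60 and 6.04 in the male head. Its gland read 6.69, 6.11, 7.05 and 7.27 in females and 10.75, 8.97, 8.35 and 8.59 in males, and the male carcass was its brightest group at 12.77. AGAP007249 (Ag.2L.168.0_CDS_at) differed by 2.74 in the head and by -1.89 in the gland, with the male carcass again brightest at 10.70.

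A few reversals set the head against the gut or the carcass. Ag.2L.446.0_CDS_at read 8.85, 8.74, 9.15 and 9.11 in the female head and 6.11, 6.22, 5.94 and 6.14 in the male head. Its midgut read 8.73, 8.16, 9.14 and 8.25 in females and 11.12, 11.42, 11.64 and 11.49 in males. The tubules followed the midgut with a difference of -2.76. Ag.2R.2312.0_CDS_at read 7.12, 7.48, 7.42 and 7.46 in the female head and 5.65, 5.25, 5.67 and 4.79 in the male head, against 5.85, 5.48, 5.20 and 5.88 in the female carcass and 7.45, 7.14, 7.60 and 7.79 in the male carcass. The sexes did not overlap in any of these tissues. Ag.2R.93.0_CDS_at had the largest male excess of the 133, at -6.66 in the midgut, beside a female excess of 1.68 in the head.

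The male carcass was opposed to the female midgut in 12 probe sets. AGAP001113 (Ag.2R.821.0_CDS_at) read 6.36, 5.65, 6.58 and 7.08 in the female midgut and 2.77, 2.49, 2.81 and 2.77 in the male midgut. Its carcass read 5.85, 4.77, 5.45 and 5.80 in females and 7.48, 6.996, 7.27 and 7.56 in males. In Ag.3L.198.0_CDS_at the midgut difference was 3.65, and the carcass and tubule differences were -2.34 and -2.68. In Ag.3R.557.0_CDS_at the differences were 2.28 in the midgut and -2.38 in the carcass, and in both probe sets the arrays of the sexes did not overlap in these tissues.

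The female salivary gland was opposed to the male carcass or the male midgut in the remaining groups described here. Ag.2L.939.0_CDS_at read 9.20, 9.39, 9.23 and 8.86 in the female gland and 5.32, 6.15, 5.03 and 6.44 in the male gland. Its carcass read 4.72, 4.81, 4.82 and 5.24 in females and 7.30, 7.54, 7.77 and 7.63 in males. AGAP012115 (Ag.3L.1242.0_CDS_at) differed by 1.86 in the gland and -1.91 in the midgut. Both probe sets showed no overlap.

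Only 9 probe sets were higher in the female Malpighian tubules. Ag.3L.258.0_CDS_s_at was also higher in the female head and carcass, by 2.20 and 1.66. Its tubules read 13.84, 13.70, 13.61 and 13.27 in females and 11.32, 11.38, 10.51 and 10.64 in males. The midgut turned the other way, with 6.10, 6.15, 6.18 and 7.30 in females and 9.85, 9.51, 9.41 and 10.36 in males. AGAP007612 (Ag.2L.2805.0_CDS_a_at) was higher in the female carcass by 2.34 and lower in the female gland, midgut and tubules.

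The tissue in which a probe set was brightest was often not one of those between which it reversed. By the mean of both sexes the brightest somatic tissue was the midgut for 40, the carcass for 39, the Malpighian tubules for 39, the salivary gland for 9 and the head for 6. That tissue itself passed towards females for 22 probe sets, towards males for 41 and in neither direction for 70. The higher sex of the female-higher tissue was a median of 1.62 log2 units below the brightest dissected group, and that of the male-higher tissue 3.17 below it. In 36 probe sets both opposed tissues were within 2 units of the brightest group. In 21 both were at least 4 units below it, and in 56 at least one was.

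The members' differences are listed next by brightest tissue, as a description. Of the 39 carcass-bright probe sets, 24 passed towards females in the head and 26 towards males in the salivary gland, with medians of 1.88 and -1.80. Of the 40 midgut-bright ones, 28 passed towards females in the carcass, and towards males 25 passed in the gland, 18 in the tubules and 19 in the midgut itself. Of the 39 tubule-bright ones, 22 passed towards males in the gland (median -1.73) and 12 towards females in the carcass, whereas in the midgut 15 passed towards females and 14 towards males. The 9 Ag.2R.8 probe sets are carcass-bright and count in both the 24 and the 26. Since the rule used these contrasts, nothing is read from these counts against the shares over all probe sets given above.

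**Figure D3:**
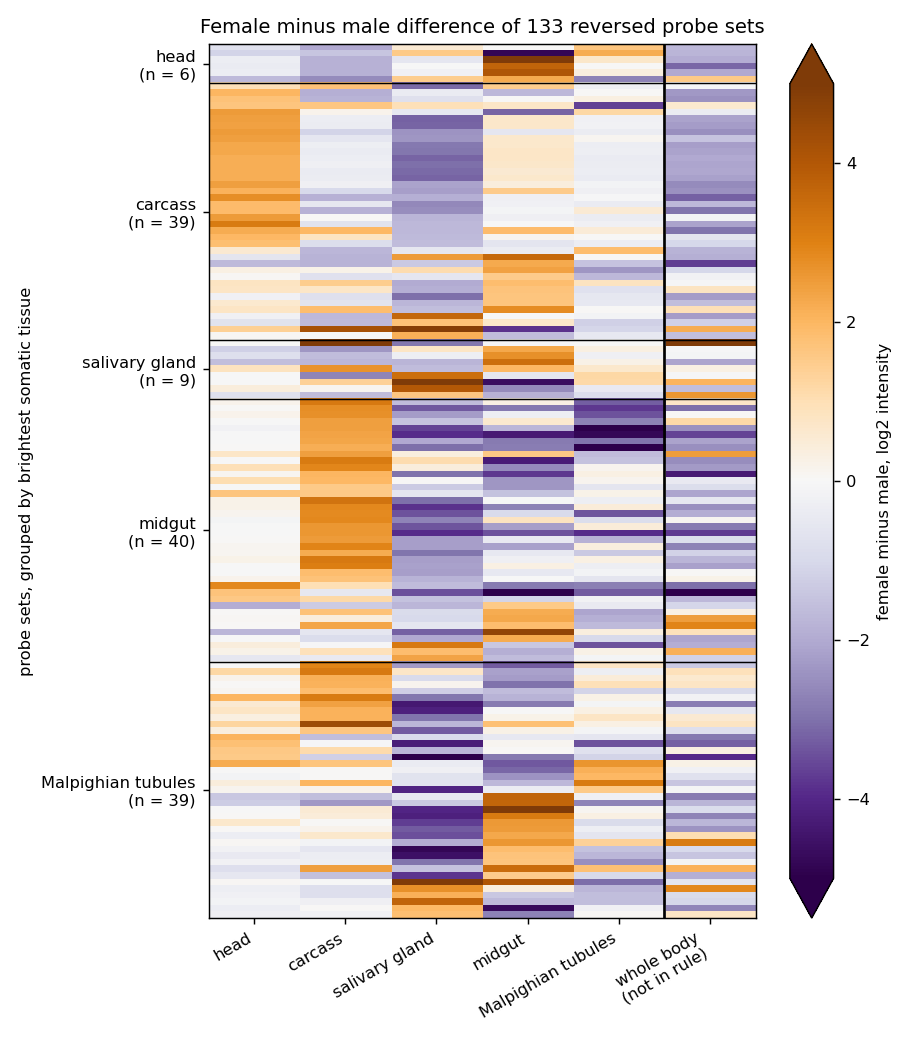
Female minus male difference in log2 intensity (colour, orange for female-higher and purple for male-higher, limited to 5 either way) of the 133 probe sets (rows, grouped by brightest somatic tissue) in the 5 tissues used by the rule and in the whole body, which it did not use. The 39 carcass-bright rows are mostly orange in the head and purple in the salivary gland, and the 40 midgut-bright rows mostly orange in the carcass and purple in the gland.

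Probe sets outside the 133 that were bright in 1 organ were also read in the others, and the source of the signal there was not tested. For each tissue, those were taken that had a mean of at least 10 there, lay at least 3 units lower in every other somatic tissue and differed by under 1 between the sexes in their own tissue. There were 23 for the midgut, 37 for the Malpighian tubules, 27 for the head, 10 for the salivary gland and 6 for the carcass, and these sets were defined after values had been seen. The 23 midgut probe sets were higher in males than in females in the salivary gland for 22, with a median difference of -1.69. Their array medians in the gland were 3.63 to 5.70 in females and 5.68 to 6.77 in males, touching at the edge. In the Malpighian tubules they were also higher in males for 22 of 23, with a median of -1.74 and array medians of 4.21 to 6.64 in females and 6.83 to 8.37 in males. In the carcass the order turned: 21 of 23 were higher in females, with a median of 0.66 and array medians of 3.28 to 5.07 in females and 2.75 to 3.52 in males. These carcass values were under the detection limit of log2 5 on all but 1 array, so the size and order of the difference there are uncertain.

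The 37 tubule probe sets were higher in the male salivary gland for 33, with a median of -1.96 and array medians of 3.88 to 4.62 in females and 5.93 to 6.96 in males, but in the carcass they differed by a median of 0.04. The 4 female gland medians were under the detection limit. The 27 head probe sets were higher in the male gland for 26, with a median of -1.52 and overlapping array medians (3.44 to 4.35 in females, 4.08 to 6.75 in males). They were higher in the male carcass for 25, with a median of -0.95 at median levels of 5.20 in females and 6.21 in males. The 6 carcass probe sets had a median of 0.68 in the head, with array medians of 6.16 to 6.72 in females and 5.45 to 6.01 in males, and of -0.78 in the gland, where the male arrays spread from 4.76 to 9.29. Every set thus had a median difference towards males in the gland, the gland's own set included (-0.38). The female gland medians of the head set were also under the detection limit, and so were those of the midgut set except the array at 5.70. Some male medians of the head set were under it too. The size of these differences is therefore uncertain.

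The members' own array medians were taken in the same way. The 40 midgut-bright members were at 4.58 to 7.05 in the female gland and 7.73 to 8.26 in the male gland, and at 6.75 to 8.04 in the female carcass and 4.39 to 6.44 in the male carcass. The 39 carcass-bright members were at 8.71 to 9.60 in the female head and 6.55 to 7.50 in the male head, and at 4.88 to 5.38 in the female gland and 5.99 to 8.51 in the male gland. These separations are what the rule selected for. Whether RNA carried over from a neighbouring organ has a part in the reversals was not tested.

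**Figure D4:**
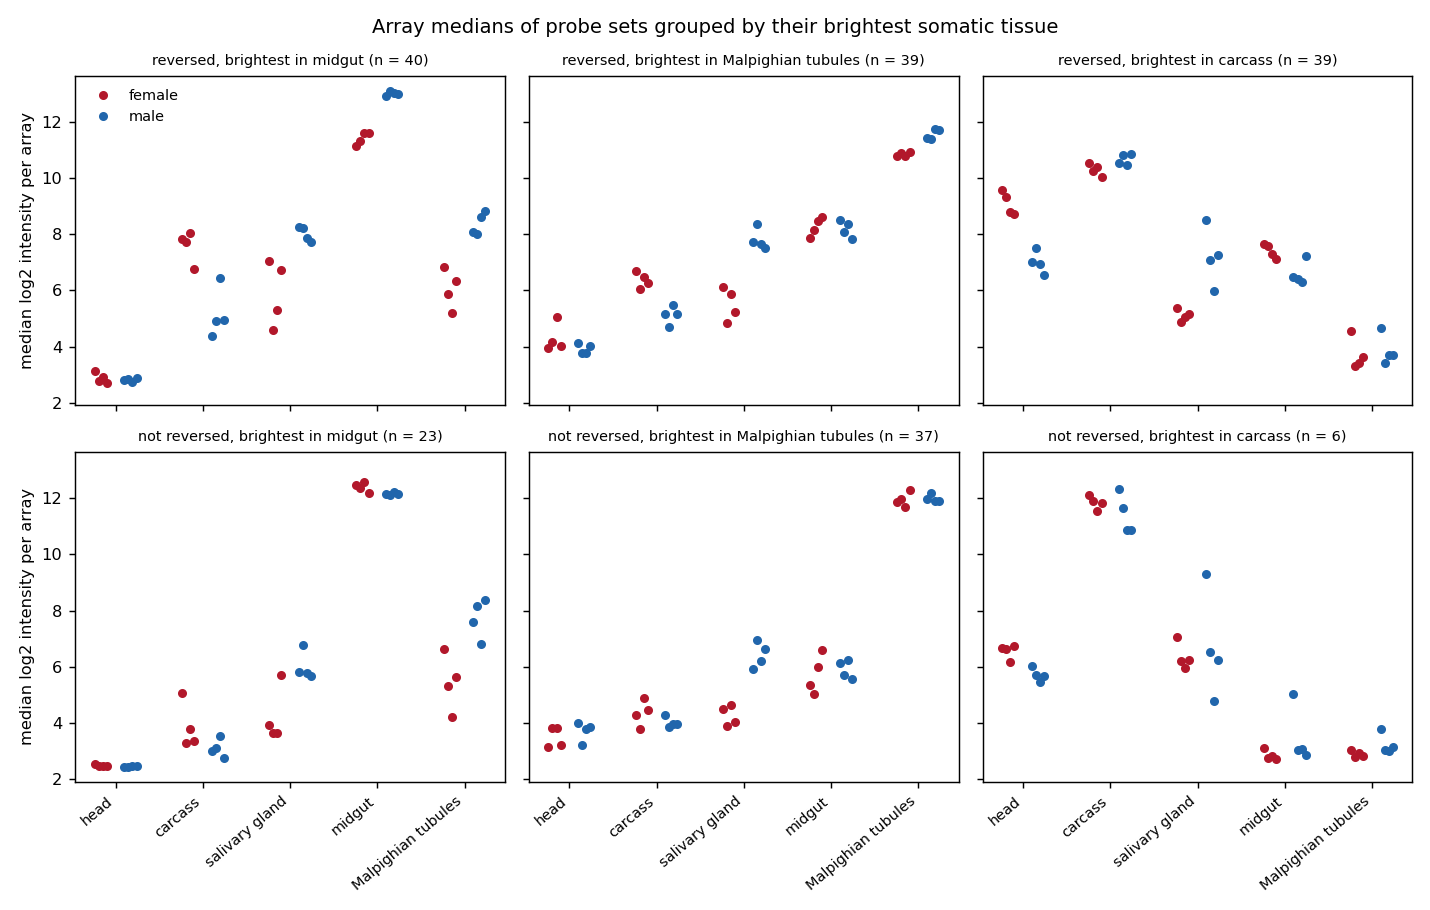
Median log2 intensity on each array over probe sets grouped by brightest somatic tissue, for the reversed probe sets (upper row) and for probe sets outside the 133 that are bright in 1 tissue with little sex difference there (lower row), females in red and males in blue. In the salivary gland the 37 tubule-bright probe sets outside the 133 lay at 3.88 to 4.62 in females and 5.93 to 6.96 in males.

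Lipophorin (AGAP001826) was the only fat body gene that could be matched, so the amount of fat body RNA cannot be read from it. It read 12.08, 12.96, 12.18 and 11.01 in the female salivary gland and 9.14, 8.21, 10.14 and 8.99 in the male gland. In the Malpighian tubules it read 8.18, 8.91, 7.58 and 10.03 in females and 6.9996, 5.76, 5.95 and 4.86 in males. The female arrays were above the male arrays in both organs, the direction opposite to the gland differences of the midgut and tubule sets. In the head the sexes overlapped (11.39 to 12.62 in females, 10.71 to 12.44 in males). Myosin heavy chain was between 2.91 and 4.61 in the gland of both sexes, under the detection limit on all 8 arrays. Its probe set read only 5.00 to 7.30 in the female carcass and 6.78 to 9.002 in the male. How much muscle RNA the gland samples held therefore cannot be read from it. The part of adhering fat body in the reversals was not tested, and the other markers of the salivary gland, midgut, gonads and accessory gland could not be matched to probe sets.

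The reproductive organs were seldom the brightest site. The brightest dissected group was the ovary for 5 probe sets, the testis for 4 and the accessory gland for 1. Ag.2R.3922.0_at was one of the testis-bright ones, at a mean of 12.89 there and 2.38 in the ovary. Its midgut read 8.40, 10.64, 7.86 and 7.96 in females and 5.67, 5.23, 6.33 and 5.13 in males, and its salivary gland 2.81, 3.14, 2.90 and 2.41 in females and 7.55, 7.36, 6.52 and 6.40 in males. The rule fixes a female excess in at least 1 somatic tissue of every member, so no link to the testis level is read from these values. The mean was under log2 5 in all 3 reproductive organs for 32 probe sets.

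By the chromosome arm written in their identifiers, the members lay on 2R (38), 3R (33), 2L (26), 3L (23) and X (8), and 5 had no assigned arm. The X held 6.02% of them against 7.09% of the 5133 probe sets that reached log2 6 in a somatic group. The suffixes that mark shared sequence were carried by 13.5% of members and by 8.21% of all *Anopheles* probe sets.

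The whole body arrays were independent of the rule and allowed a test. Of the 133 probe sets, 129 were detected there (log2 at least 5 in 3 of the 4 arrays of either sex), and they were tested together with all 5821 detected probe sets with limma. With calls made at 2-fold or more and a Benjamini-Hochberg adjusted p below 0.05, 76 were higher in males, 14 were higher in females and 39 were not called. Males were thus higher for 58.9% of the members tested against 28.5% of all probe sets tested, and females for 10.9% against 30.6%. The median difference was -1.45 over the members and 0.10 over all tested. A detection limit can favour probe sets that differ, so these shares describe the members that passed it.

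The background depends on the ovary, which makes up much of a blood-fed female. Among members with an ovary mean under log2 5, 50 of 75 (66.7%) were higher in males, and among all probe sets tested with such an ovary level 65.8% were. Among members with an ovary mean of at least 5, 26 of 54 (48.1%) were higher in males against 14.1% of all such probe sets, and 8 (14.8%) were higher in females against 38.3%. Of the members with little ovary signal, 6 were higher in females (8% against 10.8%). The share higher in males was thus close to the background for members with little ovary signal and above it for the others. Every member had to reach log2 6 in 2 somatic tissues, but the background was not limited in this way. It can therefore hold probe sets read mainly in the ovary, and the gap is not read as a trait of the members. Of those 54, 9 are the Ag.2R.8 probe sets.

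**Figure D5:**
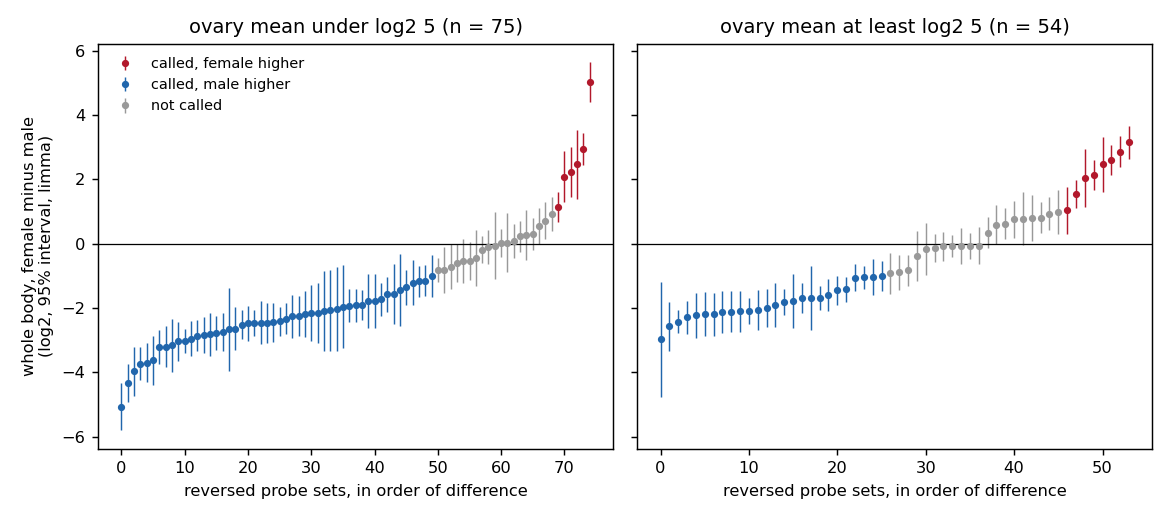
Whole body female minus male difference (log2, points) with 95% intervals from limma for the 129 reversed probe sets that were tested, in order of size, divided by ovary mean at log2 5. Of the 75 with little ovary signal 50 were called higher in males, and of the other 54 there were 26.

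Whole body calls were also counted by reversal group. Of the 25 probe sets higher in the female head and the male salivary gland, 22 were higher in the male whole body and 0 in the female, with a median of -2.14. Of the 32 higher in the female carcass and the male gland, 17 were higher in males and 1 in females. In the midgut-over-tubules group (female-higher midgut, male-higher tubules) 4 of 11 were called each way. These groups were not tested against each other, and they differed in ovary level. The ovary mean was under log2 5 for 8 of the 25, 28 of the 32 and 7 of the 12 in the last group. Over all probe sets tested, 65.8% were higher in males with such an ovary level and 14.1% with a higher one. The 22 also include the 9 closely correlated Ag.2R.8 probe sets. Calls towards males were the more frequent whichever opposed tissue was the brighter, as judged across separately normalized tissues. Where it was the female-higher tissue, 41 of 67 tested members were higher in males and 8 in females. Where it was the male-higher tissue, 35 of 62 were higher in males and 6 in females. Over all probe sets tested, 28.5% were higher in males and 30.6% in females, but this split was not divided by ovary level. The ovary mean was under log2 5 for 75 of the 129 members tested, and the 41 include the 9 Ag.2R.8 probe sets. The gap to these shares is therefore not read as a trait of the members.

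Single probe sets showed both outcomes. Ag.2L.304.0_CDS_at read 8.85, 8.48, 8.06 and 8.05 in the female whole body and 4.09, 3.28, 2.99 and 2.99 in the male, a difference of 5.02 (95% interval 4.40 to 5.64, limma adjusted p = 3.9e-08), in the direction of its carcass. Ag.2R.93.0_CDS_at read 3.19, 3.04, 3.28 and 3.07 in females and 7.14, 8.11, 8.97 and 8.65 in males, a difference of -5.07 (limma adjusted p = 1.3e-07), in the direction of its midgut. Both were fully apart between the sexes.
Ag.3L.1394.0_CDS_a_at was higher in females by 2.04 (1.14 to 2.95, limma adjusted p = 0.00077), with female arrays at 6.65, 6.73, 8.46 and 7.42 and male arrays at 5.43, 5.56, 5.72 and 4.36. Ag.3L.352.0_CDS_at was higher in females by 2.22 (limma adjusted p = 0.00015), and Ag.2L.1259.0_CDS_at was higher in males, at a difference of -2.52 (limma adjusted p = 7.0e-07). In the first the whole body took the side of the salivary gland, in the second that of carcass and gland, and in the third that of the midgut. The first also had higher means in the female carcass and tubules, and its ovary read 5.19 to 8.12. Which organs set these whole body differences was not tested.

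For other reversed probe sets the whole body showed no difference that passed. Ag.3R.186.0_CDS_a_at differed by -0.54 (-1.21 to 0.13) and Ag.3R.163.0_CDS_s_at by -0.19 (-0.61 to 0.23). Ag.3L.710.0_UTR_at differed by -0.88 (-1.42 to -0.34, limma adjusted p = 0.0064), under the fold asked for. Ag.2R.363.0_UTR_a_at differed by 0.59 with a limma adjusted p of 0.070. The Ag.2R.8 probe sets were higher in males, at differences of -2.57 to -1.998, and so was AGAP008311, at -2.48 (limma adjusted p = 3.2e-07), although in the head all of these were higher in females.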

How the data were processed

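Each of the 60 arrays gave 1 column of the deposited table. The authors made these linear intensities with GCRMA, which corrects background and summarizes the probes of a set (version not given in the sources used here), and normalized them within each tissue over both sexes. GCRMA can shift low values strongly, so differences that rest on a side near the floor are less certain in size. Groups came from the sample labels. Intensities were taken as log2 with no further normalization, and levels in different tissues are therefore not on a common scale.

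The members and all lists were chosen with earlier results of these data known. Besides the probe sets at the threshold, 52 members were chosen for naming. These were the first 30 by rank of the smaller opposed difference and the first 3 of each ordered pair of tissues. Those described singly are 28: the first 12 by rank, the first of each frequent pair, the first Ag.2R.8 probe set, the extremes in either direction and the first 10 with a gene identifier. This choice, and with it every singly described probe set outside the rule, was made after the values were seen.

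Whole body sexes were compared with limma 3.58.1 (lmFit and eBayes, R 4.3.3), adjusting by Benjamini-Hochberg over 5821 probe sets. On simulated data for this comparison (5232 probe sets, 100 changed at each size), 82% of those changed by 1.5 and 92% of those changed by 3 on the log2 scale were found, with 7 false calls among 181. P-values measure the spread between pooled samples. Python 3.11.15, numpy 2.4.6, pandas 2.3.3 and matplotlib 3.10.9 were used for all other steps.

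The files used here do not pair probe sets with genes. AGAP identifiers were attached by matching relative abundance values listed in the study's tables of orthologues to the same quantity computed from the intensities. The arithmetic behind those values had to be found by search: of 98 combinations tried on 300 genes, the one used (linear group means, the higher sex, as a share of the sum over tissues) matched 268 and the next best 64. With it, 1174 of 1352 genes matched exactly 1 probe set within 0.0006, among them 20 of the 133 members. Of 25 lists of pathway and marker genes with 22 identifiers written out, only lipophorin and myosin heavy chain could be joined, so no list is counted. No identifier of a member was annotated with a function, and no sequence is shown.

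The sets of probe sets bright in 1 tissue were first drawn with a level minimum of 11 and then with 10, after the values had been seen, to hold more probe sets; both are given. Other alternatives were quantile normalization of all arrays, other thresholds and level minimums, medians, leaving out shared-sequence probe sets, each replicate number, or each array, a floor at log2 5, and for the whole body other filters, variance settings, a replicate block and 1 fit on all arrays.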

Additional observations from a re-analysis of the deposited data

Results flagged for a closer look

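Among 234 groups of 4 arrays whose values were looked at for the probe sets described singly, the marker genes and the array medians, 15 had 1 array far from the other 3 by Dixon's criterion. Chance gives such a gap in about 1 group in 20. In the salivary gland of females, replicate 1 read 10.05 for Ag.2L.16.0_CDS_a_at against 4.74 to 4.97 on the others. Replicate 4 of that group read 10.32 for Ag.3R.157.14_a_at against 8.15 to 8.44, and on the same array the median of the 23 midgut probe sets outside the 133 was 5.70 against 3.63 to 3.94. In the male gland the median of those 23 was 6.77 on replicate 2 against 5.68 to 5.82, and AGAP010147 was 4.61 on replicate 1 against 2.91 to 3.05.

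In the Malpighian tubules of females, Ag.3L.1605.0_CDS_a_at read 3.95 on replicate 4 against 5.26 to 5.47. In the female midgut Ag.3L.258.0_CDS_s_at read 7.30 on replicate 4 against 6.10 to 6.18, and in the female carcass 7.20 on replicate 1 against 6.02 to 6.21. In the male midgut Ag.2L.2805.0_CDS_a_at read 13.48 on replicate 3 against 13.20 to 13.23, and Ag.2R.821.0_CDS_at read 2.49 on replicate 2 against 2.77 to 2.81. On female head replicate 1, Ag.2R.2312.0_CDS_at read 7.12 against 7.42 to 7.48 and AGAP001826 read 11.39 against 12.46 to 12.62, while on male head replicate 4 Ag.2L.168.0_CDS_at read 5.76 against 4.97 to 5.09. In the whole body, Ag.3R.186.0_CDS_a_at read 10.85 on male replicate 3 against 9.67 to 9.74, and Ag.3L.1064.0_CDS_at read 3.17 on female replicate 2 against 2.74 to 2.79.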

How the results depend on the processing

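A difference threshold of 1 gave 303 reversed probe sets and a threshold of 2 gave 66. Without a replicate number the count ran from 123 to 145, and 88 of the 133 were kept in each of the 4. Quantile normalization gave 132, of which 117 were among the 133, and moved array medians by -0.25 to 0.09. Setting values below log2 5 to 5 gave 115, and leaving out single arrays gave 127 (without female salivary gland replicate 2) to 141 (without female carcass replicate 4). Counting each arm and number once gave 119.

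In the whole body, the members called male-higher ran from 67 (no filter) to 77 over the planned settings and the female-higher ones from 12 to 16. Whole body samples of the same replicate number correlated at -0.01 to 0.35 and 1 of 4 females best with its own number, so the numbers were not taken to pair them. In the Malpighian tubules, where no test was made, all 4 pairs correlated at 0.12 to 0.22 and 4 of 4 females best with their own number; 3 of 4 did in the salivary gland, 2 in carcass and midgut and 0 in the head. With a replicate block, 76 members were male-higher and 14 female-higher. The direction of the difference turned, without a replicate, for Ag.3L.258.0_CDS_s_at (from -0.089 to 0.63), Ag.3R.557.0_CDS_at (from -0.31 to 0.10), Ag.2L.939.0_CDS_at (from -0.54 to 0.29) and Ag.2L.18.0_CDS_a_at (from -0.31 to 0.38), none of which passed the test; the cause was not tested. With a level minimum of 11 the bright sets outside the 133 had median differences in the gland of -1.91 (midgut), -2.18 (tubules) and -1.46 (head). Those of the salivary gland and carcass sets were -0.60 and -0.47.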
